A study of Mus musculus with 11 samples.

Results

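Integrins are receptors of the cell surface, each made of an alpha and a beta subunit, that bind the extracellular matrix or molecules on other cells and connect them to the cytoskeleton. Laminins are secreted trimers of an alpha, a beta and a gamma chain, and they form the sheet of basement membranes that several integrins bind. In healthy liver the sinusoids have little basement membrane, and the leukocyte integrins are carried mainly by Kupffer cells, other macrophages and lymphocytes rather than by hepatocytes.

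Both gene families were followed here in livers of mice that lack Nemo, the IκB kinase scaffold needed for canonical NF-κB signalling, in hepatocytes. Members were all genes with an integrin subunit symbol (Itga or Itgb followed by a number or letters) or a laminin chain symbol on a probe set annotated to exactly 1 gene, with the genes named Itgb1bp left out. Each gene was represented by its probe set with the highest mean over the 11 arrays. This gave 39 genes of the 19938 that have such a probe set, 29 with integrin symbols and 10 with laminin symbols. Of the 29, 26 encode integrin subunits. Itgbl1 and Itgb2l encode proteins that resemble beta subunits, and Itgb3bp, which the symbol rule also takes in, encodes a centromere protein and nuclear receptor coregulator. Of the laminin chains, Lama1 to Lama5, Lamb1 to Lamb3, Lamc1 and Lamc3 were measured. Only Itgad had a second probe set.

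The arrays covered 4 genotypes of male C57/BL6 mice aged 8 to 9 weeks on chow. There were 3 arrays of Nemo/TNFR1 dKO, which lack Nemo in hepatocytes and TNFR1, a receptor for tumour necrosis factor, constitutively. There were 2 arrays of Nemo/TRAIL dKO, which lack Nemo in hepatocytes and the death ligand TRAIL constitutively, 3 arrays of Nemo KO (NemoΔhepa, with loxP-flanked Nemo) and 3 arrays of wild type (WT). The sources used here do not name the promoter of the recombinase or say whether WT mice carried the floxed allele. The deletion of Nemo concerns hepatocytes, whereas many of the genes below are known from other liver cells. RNA came from whole liver, so a lower level from fewer cells of a type and from less RNA per cell cannot be told apart. The labels do not say that the arrays of a group came from separate animals, so the p-values measure the spread between these samples, which may be technical.

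All values are log2 expression. A difference is given with its standard error (SE), and a gene was called, or said to rise or fall, at an adjusted p below 0.05 in a limma model of all probe sets. Ikbkg, which encodes Nemo, was at 8.20, 8.31 and 8.12 in Nemo/TNFR1 dKO, 8.28 and 8.22 in Nemo/TRAIL dKO, 8.35, 8.56 and 8.36 in Nemo KO and 8.65, 8.73 and 8.60 in WT. It was called lower than WT in both double knockouts and not called in Nemo KO. Tnfsf10 (TRAIL) was at 6.23 and 6.11 in Nemo/TRAIL dKO, 6.86, 6.49 and 6.26 in Nemo KO and 7.00, 6.95 and 6.51 in WT, and was not called between these genotypes. Tnfrsf1a (TNFR1) was at 10.04, 9.95 and 10.19 in Nemo/TNFR1 dKO, 10.19, 10.41 and 10.41 in Nemo KO and 10.09, 9.93 and 9.95 in WT. In Nemo/TRAIL dKO it was at 10.43 and 10.39. Tnfrsf1a was called higher than WT in Nemo KO and Nemo/TRAIL dKO and was not called in Nemo/TNFR1 dKO. Nemo/TNFR1 dKO overlapped with WT, and its difference from Nemo KO was -0.27 ± 0.09 (adjusted p = 0.586). The sources used here do not place these probe sets relative to the deleted parts, and a probe outside the deleted part checks nothing. The array names carry a code shared by WT and Nemo KO and different in each double knockout, and array numbers follow genotype, so whatever these mark cannot be told apart from genotype. In WT replicate 3 the mean level of 10 pancreatic acinar genes was 10.78, against 5.17 to 5.54 in the other arrays. The labelled tissue was checked by hepatocyte markers, whose mean over 11 genes was 13.10 to 13.18 in Nemo/TNFR1 dKO, 13.16 to 13.17 in Nemo/TRAIL dKO, 13.14 to 13.17 in Nemo KO and 13.17 to 13.26 in WT.

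Among the 39 genes, 13 rose in Nemo/TNFR1 dKO, 13 in Nemo/TRAIL dKO and 15 in Nemo KO relative to WT, and none fell. Over all 35556 probe sets, 5.83% were called higher and 3.35% lower in Nemo/TNFR1 dKO, 4.91% higher and 2.64% lower in Nemo/TRAIL dKO, and 6.08% higher and 3.21% lower in Nemo KO. The shares of the family called higher were 33.3%, 33.3% and 38.5% in the same order. The median log2 difference of the 39 genes was 0.25 in Nemo/TNFR1 dKO, 0.28 in Nemo/TRAIL dKO and 0.26 in Nemo KO, against medians of -0.039, -0.045 and -0.054 over all probe sets. Of the 39 genes, 19 lay wholly above and 3 wholly below the WT arrays in Nemo/TNFR1 dKO. The counts were 22 and 2 in Nemo/TRAIL dKO and 23 and 3 in Nemo KO. Over all probe sets 25.5%, 35.9% and 30.3% were apart from WT in either direction in the same order. Groups this small are often apart, so a lack of overlap below is a description and not a call. The 3 comparisons share the WT arrays, so their values are given side by side and are not independent of each other. In all, 16 genes were called in at least 1 comparison: 10 integrin subunits, the integrin-like Itgbl1, and the laminin chains Lama2, Lama5, Lamb1, Lamc1 and Lamc3. The integrin subunits called were 9 of 26 in Nemo/TNFR1 dKO, 8 of 26 in Nemo/TRAIL dKO and 10 of 26 in Nemo KO, and the laminin chains called were 3, 5 and 4 of 10.

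These counts rested on few arrays, most of all in Nemo/TRAIL dKO. There the count of 13 was 2 without Nemo/TRAIL dKO replicate 1 and 7 without replicate 2, fits in which the lone Nemo/TRAIL dKO array is assumed to vary like the other groups. It was 8 without WT replicate 1 and 8 without WT replicate 2. In Nemo/TNFR1 dKO the count of 13 was 8 without Nemo/TNFR1 dKO replicate 2. Without WT replicate 3, the array with the acinar signal, 14 genes were called higher in Nemo/TNFR1 dKO, 11 in Nemo/TRAIL dKO and 15 in Nemo KO. Of the called genes, 8 of 13 in Nemo/TNFR1 dKO, 2 of 13 in Nemo/TRAIL dKO (Itgb2 and Lamb1) and 13 of 15 in Nemo KO were called whichever of the 11 arrays was left out.

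**Figure D1:**
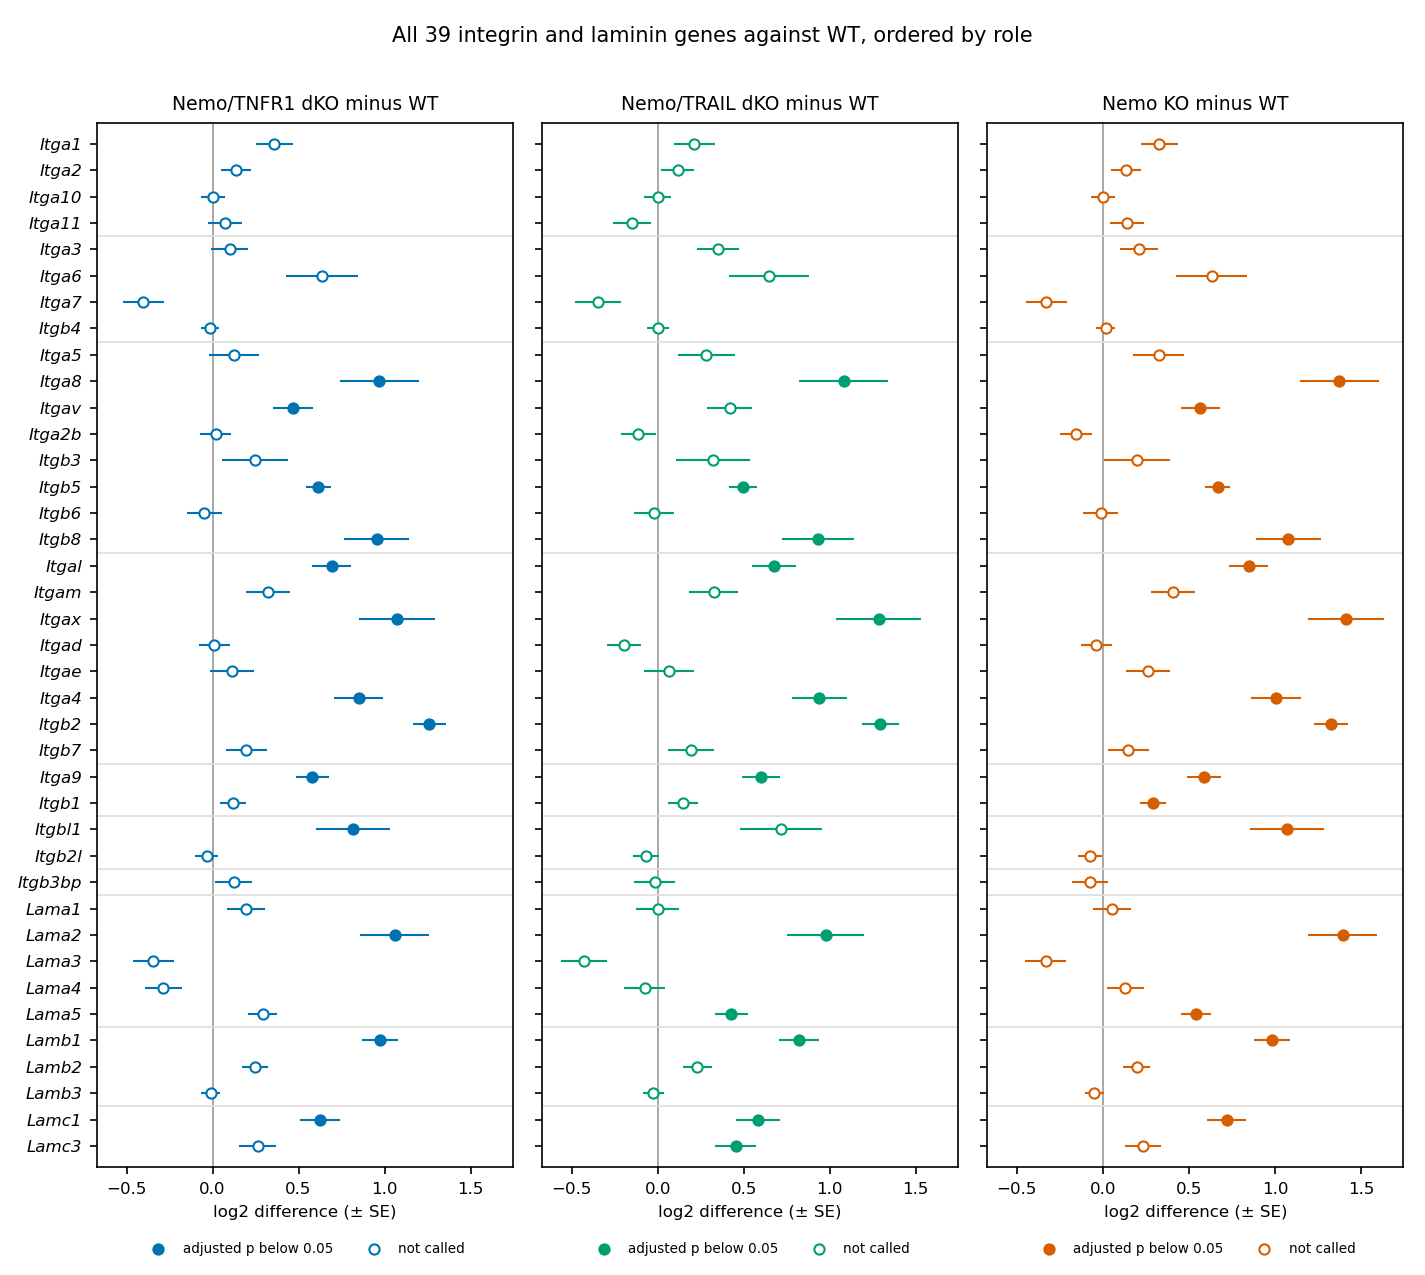
Log2 difference (x axis, ± SE) of each of the 39 genes, ordered by role down the page, between Nemo/TNFR1 dKO, Nemo/TRAIL dKO or Nemo KO and WT; filled points are called at an adjusted p below 0.05. All filled points lie right of 0, and Itga7 and Lama3 lie left of 0 in each panel without being called.

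The leukocyte integrins held the gene with the largest difference from WT in each comparison, Itgb2 in both double knockouts and Itgax in Nemo KO. This role holds the beta subunits Itgb2 and Itgb7 and alpha subunits of receptors for adhesion molecules of endothelium, other leukocytes or complement-coated particles. In each Nemo-deficient genotype 4 of the 8 rose, namely Itgb2, Itgax, Itgal and Itga4. Itgb2 was at 8.05, 8.11 and 8.38 in Nemo/TNFR1 dKO, 8.31 and 8.12 in Nemo/TRAIL dKO, 8.19, 8.23 and 8.32 in Nemo KO and 6.93, 6.84 and 6.98 in WT. Every Nemo-deficient array was above every WT array for this common beta subunit of leukocytes, and the WT arrays lay close together. The differences from WT were 1.26 ± 0.10 (2.4-fold, adjusted p = 0.000222) in Nemo/TNFR1 dKO, 1.29 ± 0.11 (2.45-fold, adjusted p = 0.000542) in Nemo/TRAIL dKO and 1.33 ± 0.10 (2.51-fold, adjusted p = 0.000263) in Nemo KO. Itgax encodes CD11c, known from dendritic cells and activated macrophages. Itgax was at 6.39, 6.88 and 7.21 in Nemo/TNFR1 dKO, 7.29 and 6.79 in Nemo/TRAIL dKO, 7.13, 7.15 and 7.23 in Nemo KO and 5.96, 5.40 and 5.91 in WT. The groups did not overlap, but Nemo/TNFR1 dKO replicate 1 was only a little above the highest WT array. Relative to WT it differed by 1.07 ± 0.22 (2.11-fold, adjusted p = 0.0157) in Nemo/TNFR1 dKO, 1.29 ± 0.25 (2.44-fold, adjusted p = 0.0131) in Nemo/TRAIL dKO and 1.42 ± 0.22 (2.67-fold, adjusted p = 0.00423) in Nemo KO.

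Itgal encodes the alpha subunit of LFA-1, the receptor for Icam1 on lymphocytes and myeloid cells. Itgal was at 7.68, 7.83 and 8.11 in Nemo/TNFR1 dKO, 7.88 and 7.83 in Nemo/TRAIL dKO, 8.02, 7.99 and 8.08 in Nemo KO and 7.32, 7.21 and 7.02 in WT. The lowest Nemo-deficient array was Nemo/TNFR1 dKO replicate 1, and it was still above all WT arrays. It differed from WT by 0.69 ± 0.11 (1.62-fold, adjusted p = 0.00499) in Nemo/TNFR1 dKO, 0.68 ± 0.13 (1.6-fold, adjusted p = 0.0116) in Nemo/TRAIL dKO and 0.85 ± 0.11 (1.80-fold, adjusted p = 0.00198) in Nemo KO. Itga4 encodes the alpha subunit of VLA-4, which binds Vcam1 and fibronectin. Itga4 was at 7.07, 7.35 and 7.69 in Nemo/TNFR1 dKO, 7.44 and 7.48 in Nemo/TRAIL dKO, 7.60, 7.35 and 7.63 in Nemo KO and 6.45, 6.62 and 6.48 in WT. On the log2 scale Itga4 differed from WT by 0.85 ± 0.14 (1.80-fold, adjusted p = 0.006) in Nemo/TNFR1 dKO, 0.94 ± 0.16 (1.92-fold, adjusted p = 0.00812) in Nemo/TRAIL dKO and 1.01 ± 0.14 (2.01-fold, adjusted p = 0.00274) in Nemo KO. Here too no Nemo-deficient array reached down to the WT arrays.

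The other 4 leukocyte integrin genes were not called. Itgam, which encodes CD11b of monocytes, neutrophils and Kupffer cells, was above WT in every Nemo-deficient array, at 5.69, 6.03 and 5.96 in Nemo/TNFR1 dKO, 6.10 and 5.69 in Nemo/TRAIL dKO, 5.84, 6.0 and 6.08 in Nemo KO and 5.59, 5.65 and 5.46 in WT. Its differences were 0.32 ± 0.13 in Nemo/TNFR1 dKO, 0.33 ± 0.14 in Nemo/TRAIL dKO and 0.41 ± 0.13 in Nemo KO (adjusted p = 0.165, 0.23 and 0.0829 in the same order). Itgad, whose product also pairs with Itgb2, differed from WT by 0.01 ± 0.09 in Nemo/TNFR1 dKO, -0.20 ± 0.10 in Nemo/TRAIL dKO and -0.04 ± 0.09 in Nemo KO (adjusted p = 0.962, 0.312 and 0.825 in the same order), and its second probe set differed by -0.03, -0.09 and -0.14. The intraepithelial lymphocyte subunit Itgae had differences of 0.11 ± 0.13 in Nemo/TNFR1 dKO, 0.07 ± 0.14 in Nemo/TRAIL dKO and 0.26 ± 0.13 in Nemo KO (adjusted p = 0.65, 0.848 and 0.243 in the same order). Itgb7, the partner of Itgae and Itga4 on gut-homing lymphocytes, had differences of 0.20 ± 0.12 in Nemo/TNFR1 dKO, 0.19 ± 0.13 in Nemo/TRAIL dKO and 0.15 ± 0.12 in Nemo KO (adjusted p = 0.369, 0.46 and 0.483 in the same order). The genes Itgam, Itgax and Itgad are consecutive protein-coding genes on chromosome 7 in the RefSeq annotation of the mouse, and of these neighbours Itgax was called and the others were not. Another 3 probe sets are annotated to Itgam and Rpl35 together and were not used.

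The promoter windows of the neighbours Itgax and Itgam are printed because these adjacent genes differ in call, and those of Lama2 and Lamb1 because these were the laminin chains with the largest rises. Each window is from RefSeq (GRCm38.p6), runs from 250 bases before to 50 bases after the annotated start, and is written 5′ to 3′ on the strand of the gene. The positions are chr7:128129300-128129599 on the plus strand for Itgax, chr7:128062390-128062689 on the plus strand for Itgam, chr10:27616893-27617192 on the minus strand for Lama2 and chr12:31265043-31265342 on the plus strand for Lamb1. The start used for a window is not always the outer end of the gene. The Lama2 gene is annotated from 26981285 to 27617191, so nearly all of its window lies inside the gene. The Lamb1 gene is annotated from 31265146, which falls within its window. Capitals mark matches, on either strand, to the motifs searched: the AP-1 motif TGANTCA, the ETS motif GAGGAA, the GC box GGGCGG, the TATA motif TATAAA and the κB consensus.
Itgax: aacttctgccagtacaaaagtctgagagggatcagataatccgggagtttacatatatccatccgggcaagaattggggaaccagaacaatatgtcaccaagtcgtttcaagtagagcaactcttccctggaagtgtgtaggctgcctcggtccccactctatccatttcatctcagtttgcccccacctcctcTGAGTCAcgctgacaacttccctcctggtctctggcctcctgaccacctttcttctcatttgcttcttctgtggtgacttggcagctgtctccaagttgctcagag
Itgam: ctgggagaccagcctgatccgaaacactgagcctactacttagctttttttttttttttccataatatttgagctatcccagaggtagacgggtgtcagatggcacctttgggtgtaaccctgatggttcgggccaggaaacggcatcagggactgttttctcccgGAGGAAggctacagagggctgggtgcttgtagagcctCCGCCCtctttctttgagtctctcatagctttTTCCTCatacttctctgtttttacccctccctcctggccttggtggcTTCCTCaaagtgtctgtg
Lama2: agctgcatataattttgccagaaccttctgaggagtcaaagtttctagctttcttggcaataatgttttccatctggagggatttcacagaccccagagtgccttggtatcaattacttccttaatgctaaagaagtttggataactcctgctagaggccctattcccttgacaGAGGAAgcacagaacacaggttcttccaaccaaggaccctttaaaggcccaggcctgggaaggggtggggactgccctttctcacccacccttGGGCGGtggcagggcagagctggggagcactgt
Lamb1: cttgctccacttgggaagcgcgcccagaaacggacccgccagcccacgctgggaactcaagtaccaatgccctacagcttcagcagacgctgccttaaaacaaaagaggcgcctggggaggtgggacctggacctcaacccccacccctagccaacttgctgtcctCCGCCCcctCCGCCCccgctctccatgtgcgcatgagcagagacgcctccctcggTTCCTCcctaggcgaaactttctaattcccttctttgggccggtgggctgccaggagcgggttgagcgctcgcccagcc

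The Itgax window held an AP-1 match that starts at position -56 relative to the annotated start, and no ETS or GC box match. The Itgam window held ETS matches starting at positions -84, -15 and 33 and a GC box at -47. Lama2 had an ETS match at -76 and a GC box at 18, and Lamb1 had an ETS match at -29 and GC boxes at -84 and -75. For 26 of the 39 genes 29 windows were found, since Itga3, Itgb6 and Lamb3 had 2 each, and 12 of the windows belonged to 12 of the 16 called genes. The AP-1 motif matched in 3 of the 29 windows (2 of the 12 of called genes) and in 7.81% of the 32851 mouse promoter windows of the same length. Those 2 were the windows of Itgax and Itga9. The Itga9 window (chr9:118711442-118711741) lies deep inside its gene, which is annotated from 118606709 to 118901003. The window of the called gene Itgav (chr2:83724147-83724446) also lies inside its gene, which is annotated from 83722303 to 83806917. So do the Itgb7 window and 1 of the 2 windows each of Itga3 and Itgb6. Both Lamb3 windows also lie inside their gene. The ETS motif matched in 15 of 29 (5 of 12) and in 28.3% of all windows, and the GC box in 13 of 29 (8 of 12) and in 35.7% of all windows. The TATA motif matched in none of the 29 and in 13.6% of all windows, and the κB consensus in 2, both of Lamb3, and in 4.51% of all windows. These 2 windows overlap and hold the same κB site, so the matches amount to 1 site of 1 gene. No searched motif overlapped another in the windows printed. A match describes the letters of the window only.

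Integrins that bind the RGD tripeptide of matrix proteins include the activators of latent TGF-β. Of these 8 genes, 4 rose in Nemo/TNFR1 dKO (Itga8, Itgav, Itgb5 and Itgb8), 3 in Nemo/TRAIL dKO (the same without Itgav) and 4 in Nemo KO. Itga8 pairs with Itgb1 and is known from mesenchymal cells. Itga8 was at 8.02, 8.49 and 8.83 in Nemo/TNFR1 dKO, 8.73 and 8.39 in Nemo/TRAIL dKO, 9.15, 8.53 and 8.88 in Nemo KO and 7.17, 7.60 and 7.67 in WT. All Nemo-deficient arrays were above WT, and the spread within the groups was wide. Relative to WT, Itga8 differed by 0.97 ± 0.23 (1.96-fold, adjusted p = 0.0292) in Nemo/TNFR1 dKO, 1.08 ± 0.26 (2.12-fold, adjusted p = 0.0335) in Nemo/TRAIL dKO and 1.37 ± 0.23 (2.59-fold, adjusted p = 0.00583) in Nemo KO. Leaving out an array ended the call in 4 of 11 fits in Nemo/TNFR1 dKO and in 6 of 11 in Nemo/TRAIL dKO. Itgb8 pairs with Itgav and activates latent TGF-β. Itgb8 was at 6.51, 6.80 and 6.73 in Nemo/TNFR1 dKO, 6.97 and 6.35 in Nemo/TRAIL dKO, 6.97, 6.75 and 6.69 in Nemo KO and 5.38, 5.89 and 5.92 in WT. Against WT the differences were 0.95 ± 0.19 (1.94-fold, adjusted p = 0.0126) in Nemo/TNFR1 dKO, 0.93 ± 0.21 (1.91-fold, adjusted p = 0.0264) in Nemo/TRAIL dKO and 1.08 ± 0.19 (2.11-fold, adjusted p = 0.00704) in Nemo KO. The groups were apart although the 2 Nemo/TRAIL dKO arrays differed from each other more than the arrays of Nemo KO.

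Itgav, the alpha subunit shared by several RGD receptors, and Itgb5, its partner in a vitronectin receptor, had the smaller differences among the called genes of this role. Itgav was at 9.37, 9.84 and 9.77 in Nemo/TNFR1 dKO, 9.67 and 9.55 in Nemo/TRAIL dKO, 9.66, 9.83 and 9.78 in Nemo KO and 9.15, 9.25 and 9.17 in WT. These amount to differences of 0.47 ± 0.12 (1.38-fold, adjusted p = 0.0344) in Nemo/TNFR1 dKO, 0.42 ± 0.13 (1.34-fold, adjusted p = 0.0898) in Nemo/TRAIL dKO and 0.57 ± 0.12 (1.48-fold, adjusted p = 0.0145) in Nemo KO. The groups did not overlap. The call in Nemo/TNFR1 dKO was lost in 7 of the 11 fits that left out an array, with an adjusted p of up to 0.120. In Nemo/TRAIL dKO Itgav was not called, except without Nemo/TNFR1 dKO replicate 1 (adjusted p = 0.0145). Itgb5 was at 10.59, 10.72 and 10.74 in Nemo/TNFR1 dKO, 10.62 and 10.50 in Nemo/TRAIL dKO, 10.72, 10.69 and 10.79 in Nemo KO and 10.06, 10.16 and 9.98 in WT. Its arrays lay close together within each genotype, and all Nemo-deficient arrays were above WT. The differences from WT were 0.62 ± 0.07 (1.53-fold, adjusted p = 0.00129) in Nemo/TNFR1 dKO, 0.50 ± 0.08 (1.41-fold, adjusted p = 0.00697) in Nemo/TRAIL dKO and 0.67 ± 0.07 (1.59-fold, adjusted p = 0.000901) in Nemo KO. The 4 genes of this role that were not called were Itga5, the fibronectin receptor subunit, Itga2b and Itgb3, which form the fibrinogen receptor of platelets, and the epithelial Itgb6. Their differences lay between -0.05 and 0.25 in Nemo/TNFR1 dKO, -0.11 and 0.32 in Nemo/TRAIL dKO, and -0.16 and 0.32 in Nemo KO.

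Itga9, which pairs with Itgb1 and binds tenascin C and Vcam1, rose in all 3 genotypes. Itga9 was at 9.30, 9.51 and 9.64 in Nemo/TNFR1 dKO, 9.58 and 9.43 in Nemo/TRAIL dKO, 9.42, 9.49 and 9.57 in Nemo KO and 9.01, 8.88 and 8.83 in WT. Relative to WT it differed by 0.58 ± 0.10 (1.5-fold, adjusted p = 0.00555) in Nemo/TNFR1 dKO, 0.60 ± 0.11 (1.52-fold, adjusted p = 0.0101) in Nemo/TRAIL dKO and 0.59 ± 0.10 (1.5-fold, adjusted p = 0.0054) in Nemo KO. Itgb1 is the beta subunit of most matrix receptors, and it was called only in Nemo KO. Itgb1 was at 9.72, 9.91 and 9.97 in Nemo/TNFR1 dKO, 9.89 and 9.90 in Nemo/TRAIL dKO, 9.94, 10.10 and 10.08 in Nemo KO and 9.74, 9.78 and 9.73 in WT. The Nemo/TNFR1 dKO arrays overlapped with WT, whereas the Nemo/TRAIL dKO and Nemo KO arrays were above it. Its differences from WT were 0.12 ± 0.08 (1.09-fold, adjusted p = 0.403) in Nemo/TNFR1 dKO, 0.15 ± 0.09 (1.11-fold, adjusted p = 0.378) in Nemo/TRAIL dKO and 0.29 ± 0.08 (1.22-fold, adjusted p = 0.0451) in Nemo KO. The call in Nemo KO was lost in 8 of the 11 fits that left out an array, with an adjusted p of up to 0.140. A difference of Itgb1 between Nemo KO and either double knockout was not called.

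The integrin-like Itgbl1 encodes a secreted protein with repeats like those of beta subunits. Itgbl1 was at 5.75, 6.27 and 5.94 in Nemo/TNFR1 dKO, 5.88 and 5.91 in Nemo/TRAIL dKO, 6.64, 6.11 and 5.97 in Nemo KO and 4.82, 5.19 and 5.50 in WT. It differed from WT by 0.82 ± 0.21 (1.76-fold, adjusted p = 0.0437) in Nemo/TNFR1 dKO, 0.72 ± 0.24 (1.65-fold, adjusted p = 0.114) in Nemo/TRAIL dKO and 1.07 ± 0.21 (2.10-fold, adjusted p = 0.0135) in Nemo KO. The groups did not overlap, and the difference in Nemo/TRAIL dKO was not called. The call of Itgbl1 in Nemo/TNFR1 dKO was lost in 7 of the 11 fits that left out an array, with an adjusted p of up to 0.145. Itgb2l had differences of -0.04 ± 0.07 in Nemo/TNFR1 dKO, -0.07 ± 0.08 in Nemo/TRAIL dKO and -0.08 ± 0.07 in Nemo KO (adjusted p = 0.81, 0.679 and 0.535 in the same order). Itgb3bp had group means of 3.91 in Nemo/TNFR1 dKO, 3.77 in Nemo/TRAIL dKO, 3.71 in Nemo KO and 3.79 in WT.

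None of the 4 collagen receptor subunits and none of the 4 laminin receptor subunits was called in any comparison over all arrays. Itga1, a collagen receptor known from liver sinusoids and stellate cells, was above WT in every Nemo-deficient array, with differences of 0.36 ± 0.11 in Nemo/TNFR1 dKO, 0.21 ± 0.12 in Nemo/TRAIL dKO and 0.33 ± 0.11 in Nemo KO (adjusted p = 0.0711, 0.355 and 0.0939 in the same order). Without Nemo/TNFR1 dKO replicate 1 it was called in Nemo/TNFR1 dKO (0.44, adjusted p = 0.0388). Its neighbour on chromosome 13, Itga2, had differences of 0.14 ± 0.09 in Nemo/TNFR1 dKO, 0.12 ± 0.10 in Nemo/TRAIL dKO and 0.14 ± 0.09 in Nemo KO (adjusted p = 0.397, 0.558 and 0.366 in the same order), and Itga10 and Itga11 lay between -0.15 and 0.14 in all 3 comparisons. Among the laminin receptors, Itga6 had the largest difference of the genes that were not called. Itga6 was at 6.79, 7.50 and 7.56 in Nemo/TNFR1 dKO, 7.43 and 7.16 in Nemo/TRAIL dKO, 7.25, 7.00 and 7.59 in Nemo KO and 6.64, 6.61 and 6.69 in WT. No Nemo-deficient array overlapped with WT, but the Nemo-deficient arrays spread widely. Its differences were 0.64 ± 0.21 in Nemo/TNFR1 dKO, 0.65 ± 0.23 in Nemo/TRAIL dKO and 0.63 ± 0.21 in Nemo KO (adjusted p = 0.097, 0.142 and 0.0955 in the same order). Without Nemo/TNFR1 dKO replicate 1 the differences were 0.88 in Nemo/TNFR1 dKO, 0.65 in Nemo/TRAIL dKO and 0.63 in Nemo KO, and all were called (adjusted p = 0.00991, 0.0416 and 0.0255).

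Itga7, the laminin receptor subunit of muscle, was lower in every Nemo-deficient array, at 6.37, 6.5 and 6.07 in Nemo/TNFR1 dKO, 6.29 and 6.45 in Nemo/TRAIL dKO, 6.44, 6.33 and 6.39 in Nemo KO and 6.76, 6.85 and 6.53 in WT. Its differences were -0.40 ± 0.12 in Nemo/TNFR1 dKO, -0.35 ± 0.13 in Nemo/TRAIL dKO and -0.33 ± 0.12 in Nemo KO (adjusted p = 0.0698, 0.169 and 0.123 in the same order). Without WT replicate 3 the difference in Nemo/TNFR1 dKO was -0.49 and was called (adjusted p = 0.0443). Itga3 had differences of 0.10 ± 0.11 in Nemo/TNFR1 dKO, 0.35 ± 0.12 in Nemo/TRAIL dKO and 0.21 ± 0.11 in Nemo KO (adjusted p = 0.643, 0.132 and 0.271 in the same order), and was called in Nemo/TRAIL dKO without replicate 2 of that genotype (0.54, adjusted p = 0.0497). Itgb4, the beta subunit of the hemidesmosome receptor, had differences of -0.01 ± 0.05 in Nemo/TNFR1 dKO, 0.00 ± 0.06 in Nemo/TRAIL dKO and 0.02 ± 0.05 in Nemo KO (adjusted p = 0.908, 0.993 and 0.871 in the same order).

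**Figure D2:**
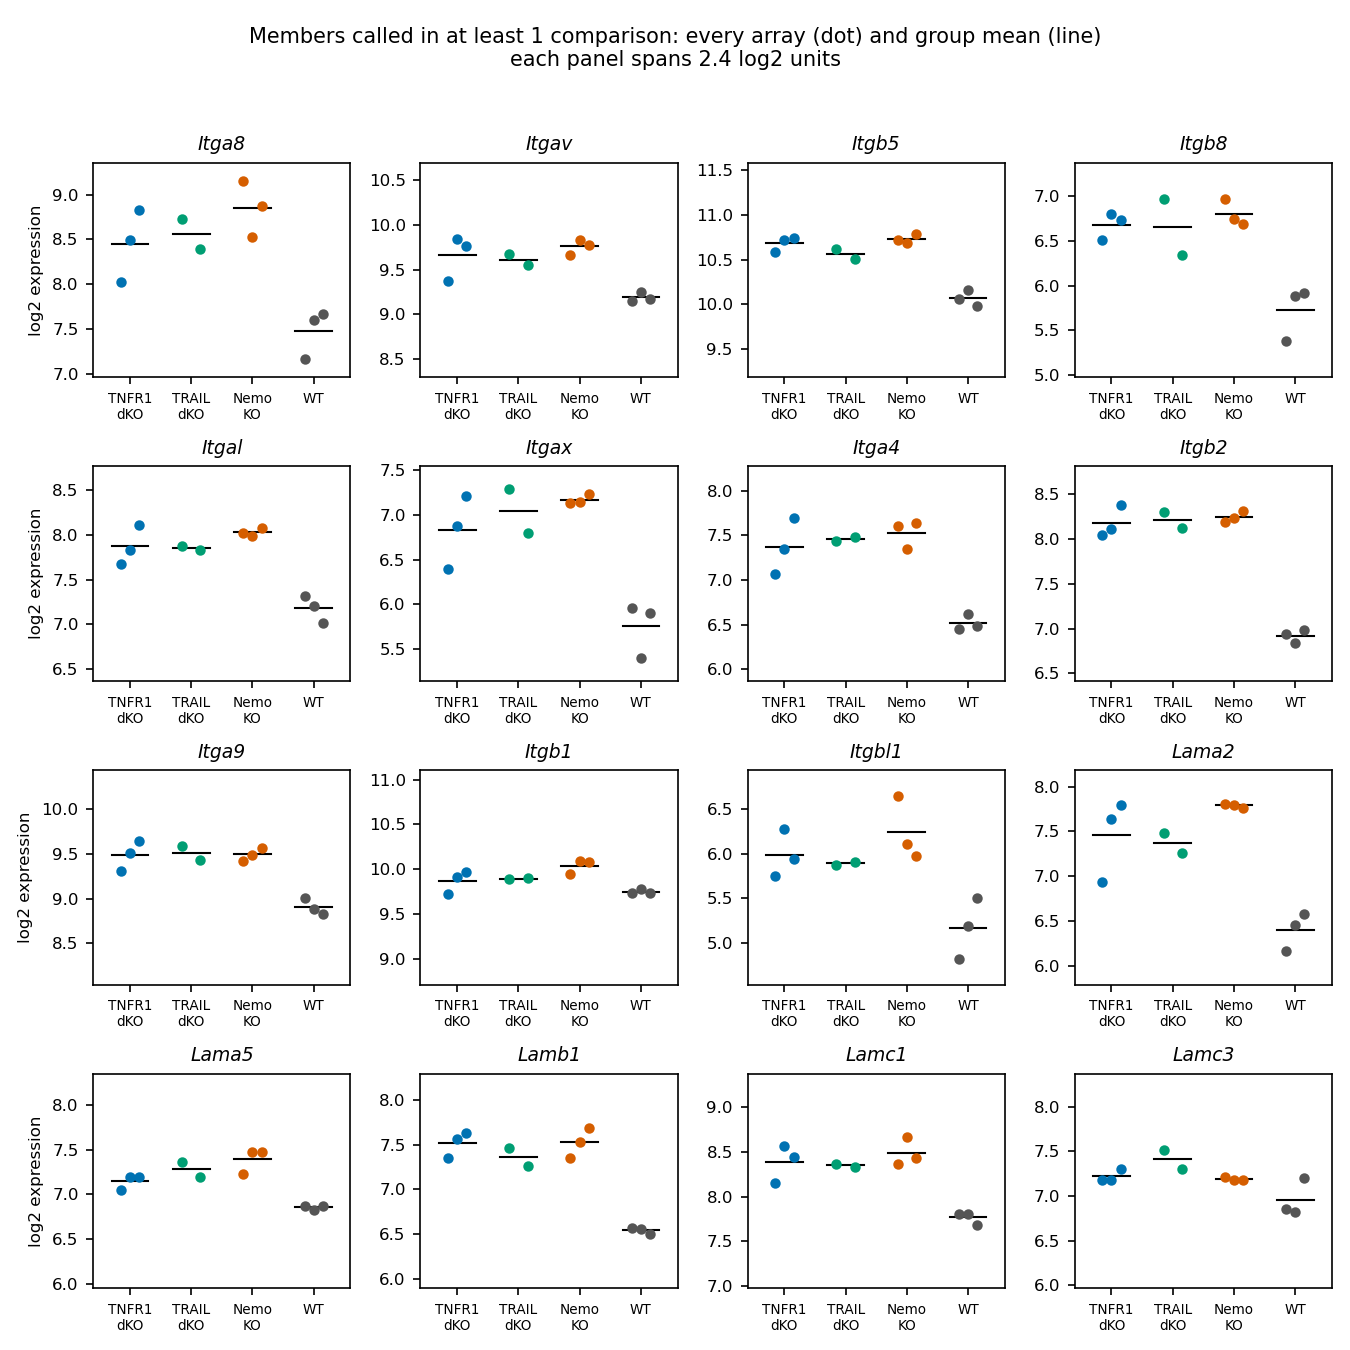
Log2 expression (y axis) of the genes called in at least 1 comparison with WT, with a dot per array and a line at the group mean, for Nemo/TNFR1 dKO, Nemo/TRAIL dKO, Nemo KO and WT. For Itgb2 the Nemo-deficient arrays sit between 8.05 and 8.38 and the WT arrays between 6.84 and 6.98, while for Itgb1 and Lamc3 the groups lie close together or overlap.

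Among the laminins, genes of all 3 chain classes rose. Lamb1 and Lamc1 encode the beta and gamma chains of the most widespread laminin trimers, and Lama2 and Lama5 encode alpha chains that join them. Lama2 was at 6.93, 7.63 and 7.80 in Nemo/TNFR1 dKO, 7.49 and 7.26 in Nemo/TRAIL dKO, 7.81, 7.80 and 7.76 in Nemo KO and 6.16, 6.45 and 6.58 in WT. The groups did not overlap, and the lowest Nemo-deficient array was Nemo/TNFR1 dKO replicate 1. Against WT the differences were 1.06 ± 0.20 (2.08-fold, adjusted p = 0.0103) in Nemo/TNFR1 dKO, 0.98 ± 0.22 (1.97-fold, adjusted p = 0.0284) in Nemo/TRAIL dKO and 1.39 ± 0.20 (2.63-fold, adjusted p = 0.00277) in Nemo KO. Lamb1 was at 7.36, 7.56 and 7.63 in Nemo/TNFR1 dKO, 7.47 and 7.27 in Nemo/TRAIL dKO, 7.36, 7.53 and 7.69 in Nemo KO and 6.57, 6.56 and 6.5 in WT. On the log2 scale Lamb1 differed from WT by 0.97 ± 0.10 (1.96-fold, adjusted p = 0.000827) in Nemo/TNFR1 dKO, 0.82 ± 0.12 (1.77-fold, adjusted p = 0.00355) in Nemo/TRAIL dKO and 0.98 ± 0.10 (1.98-fold, adjusted p = 0.000806) in Nemo KO. Lamb1 was the laminin chain with the smallest adjusted p in each of the 3 comparisons.

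Lamc1 was at 8.16, 8.57 and 8.45 in Nemo/TNFR1 dKO, 8.37 and 8.34 in Nemo/TRAIL dKO, 8.37, 8.66 and 8.44 in Nemo KO and 7.81, 7.81 and 7.68 in WT. All Nemo-deficient arrays were above WT. Relative to WT, Lamc1 differed by 0.62 ± 0.11 (1.54-fold, adjusted p = 0.00852) in Nemo/TNFR1 dKO, 0.58 ± 0.13 (1.5-fold, adjusted p = 0.0229) in Nemo/TRAIL dKO and 0.72 ± 0.11 (1.65-fold, adjusted p = 0.00441) in Nemo KO. Lama5 was at 7.04, 7.20 and 7.20 in Nemo/TNFR1 dKO, 7.37 and 7.20 in Nemo/TRAIL dKO, 7.23, 7.47 and 7.48 in Nemo KO and 6.87, 6.82 and 6.87 in WT. The groups were apart in all genotypes, and the difference in Nemo/TNFR1 dKO was not called. The differences from WT were 0.29 ± 0.09 (1.22-fold, adjusted p = 0.0697) in Nemo/TNFR1 dKO, 0.43 ± 0.10 (1.34-fold, adjusted p = 0.0267) in Nemo/TRAIL dKO and 0.54 ± 0.09 (1.45-fold, adjusted p = 0.00469) in Nemo KO. Without Nemo KO replicate 1 it was called in Nemo/TNFR1 dKO as well (adjusted p = 0.0452), and the call in Nemo/TRAIL dKO was lost in 5 of the 11 fits that left out an array. Lamc3, a gamma chain of fewer tissues, was called only in Nemo/TRAIL dKO. Lamc3 was at 7.18, 7.18 and 7.30 in Nemo/TNFR1 dKO, 7.52 and 7.31 in Nemo/TRAIL dKO, 7.21, 7.18 and 7.18 in Nemo KO and 6.85, 6.82 and 7.21 in WT. WT replicate 3 was well above the other WT arrays and overlapped with the Nemo/TNFR1 dKO and Nemo KO arrays. Over all arrays its differences were 0.26 ± 0.11 (1.2-fold, adjusted p = 0.175) in Nemo/TNFR1 dKO, 0.45 ± 0.12 (1.37-fold, adjusted p = 0.0493) in Nemo/TRAIL dKO and 0.23 ± 0.11 (1.17-fold, adjusted p = 0.212) in Nemo KO. The call in Nemo/TRAIL dKO was lost in 10 of the 11 fits that left out an array, with an adjusted p of up to 0.303. Without WT replicate 3 the differences were 0.39 in Nemo/TNFR1 dKO, 0.58 in Nemo/TRAIL dKO and 0.36 in Nemo KO, and all were called (adjusted p = 0.0244, 0.00955 and 0.0322).

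The other 5 laminin chains were not called over all arrays. Lama3, an alpha chain of epithelial laminins, was lower in every Nemo-deficient array, at 6.16, 6.17 and 6.22 in Nemo/TNFR1 dKO, 6.12 and 6.07 in Nemo/TRAIL dKO, 6.20, 6.21 and 6.17 in Nemo KO and 6.30, 6.42 and 6.86 in WT, where replicate 3 was the highest. Its differences were -0.34 ± 0.12 in Nemo/TNFR1 dKO, -0.43 ± 0.13 in Nemo/TRAIL dKO and -0.33 ± 0.12 in Nemo KO (adjusted p = 0.118, 0.0946 and 0.125 in the same order), and without WT replicate 3 they were -0.18, -0.27 and -0.17. Without WT replicate 1 they were -0.46 in Nemo/TNFR1 dKO and -0.54 in Nemo/TRAIL dKO, and both were called (adjusted p = 0.0473 and 0.0400). Lama4, the alpha chain of vessel laminins, was at 6.54, 6.92 and 6.71 in Nemo/TNFR1 dKO, 6.99 and 6.87 in Nemo/TRAIL dKO, 7.31, 7.09 and 7.01 in Nemo KO and 7.03, 6.98 and 7.00 in WT. It differed from WT by -0.29 ± 0.11 in Nemo/TNFR1 dKO, -0.08 ± 0.12 in Nemo/TRAIL dKO and 0.13 ± 0.11 in Nemo KO (adjusted p = 0.141, 0.776 and 0.484 in the same order). The beta chain Lamb2 was above WT in every Nemo-deficient array, by 0.25 ± 0.08 in Nemo/TNFR1 dKO, 0.23 ± 0.09 in Nemo/TRAIL dKO and 0.20 ± 0.08 in Nemo KO (adjusted p = 0.0794, 0.153 and 0.151 in the same order). Without WT replicate 3 its difference in Nemo/TNFR1 dKO was 0.32 and was called (adjusted p = 0.0272), as it was under array weights (adjusted p = 0.0494). Lama1, an alpha chain of the embryo, and Lamb3, the beta chain of epithelial laminins, differed by between -0.05 and 0.19 in the 3 comparisons.

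The 3 Nemo-deficient genotypes were then compared with each other, which addresses whether loss of TNFR1 or TRAIL altered these genes. None of the 39 genes was called between Nemo/TNFR1 dKO and Nemo KO, between Nemo/TRAIL dKO and Nemo KO, or between Nemo/TNFR1 dKO and Nemo/TRAIL dKO by limma. Over all probe sets 0.0337%, 0.00562% and 0.0478% were called in either direction in the same order, so these comparisons called almost nothing anywhere. At an unadjusted p below 0.05 there were 2, 1 and 0 of the 39 genes, against 2440, 1436 and 1788 of the 35556 probe sets, so the genes' shares are not above those of all probe sets. The 3 genes are given as values only. In Nemo/TNFR1 dKO minus Nemo KO the difference of Lama4 was -0.42 ± 0.11 on the log2 scale (adjusted p = 0.496). For Lama5 it was -0.25 ± 0.09 (adjusted p = 0.631). For Itga11 the difference between Nemo/TRAIL dKO and Nemo KO was -0.29 ± 0.11 (adjusted p = 1).

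For the 16 genes called against WT, the differences lay between -0.40 and 0.03 in Nemo/TNFR1 dKO against Nemo KO, between -0.42 and 0.22 in Nemo/TRAIL dKO against Nemo KO, and between -0.21 and 0.15 in Nemo/TNFR1 dKO against Nemo/TRAIL dKO. The 95% confidence intervals of these differences reached as far as -0.92 and 0.30, -0.92 and 0.49, and -0.77 and 0.64. These bounds are the outermost over the 16 genes, and most genes have narrower intervals. Only the interval of Lama5 in Nemo/TNFR1 dKO against Nemo KO, -0.442 to -0.055, left out 0. The intervals are not adjusted for the number of probe sets, and Lama5 was not called there. The intervals do not show that the genotypes are alike. These genes were chosen by calls that used the Nemo KO arrays, so their sign against Nemo KO is no result.

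**Figure D3:**
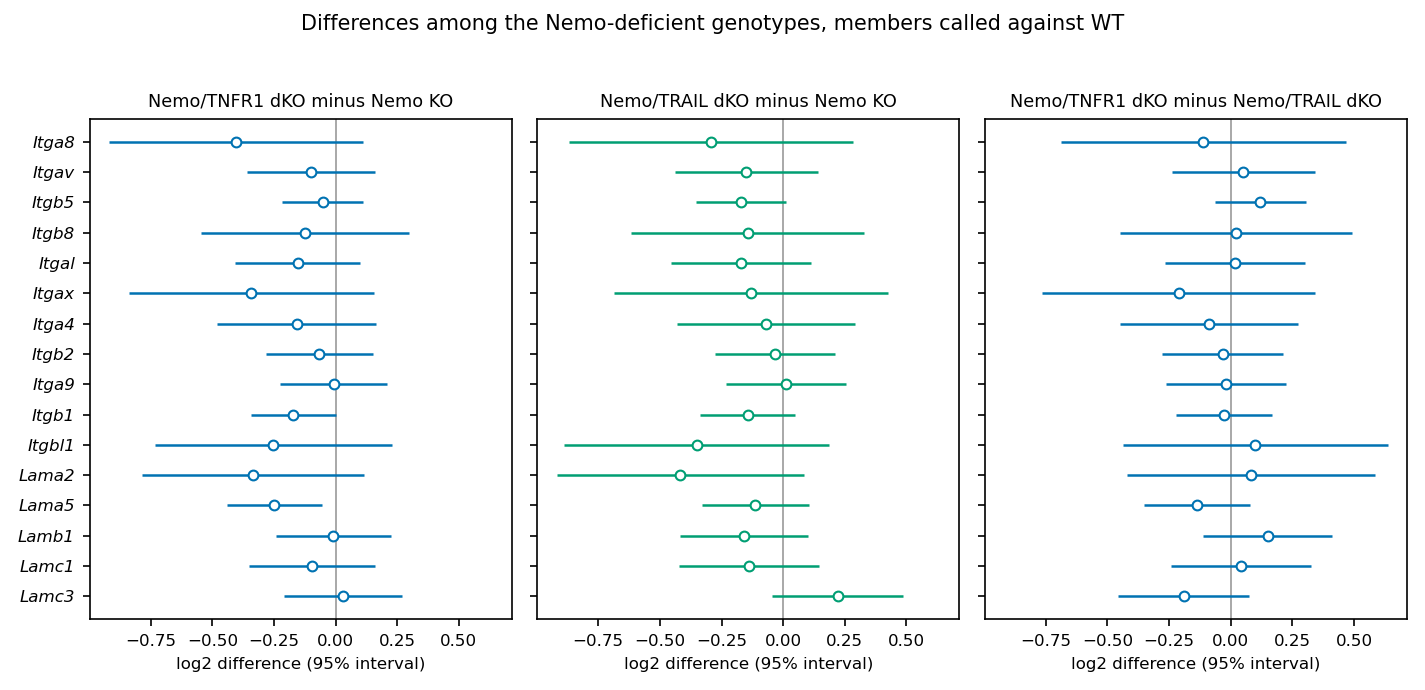
Log2 differences with 95% confidence intervals (x axis) of the genes called against WT, between the Nemo-deficient genotypes: Nemo/TNFR1 dKO minus Nemo KO, Nemo/TRAIL dKO minus Nemo KO, and Nemo/TNFR1 dKO minus Nemo/TRAIL dKO. The differences lie between -0.42 and 0.22, and none was called.

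Within the Nemo/TNFR1 dKO group, replicate 1 was the lowest of the 3 arrays for all 16 called genes. It was the lowest for 25 of all 39, a count that includes these 16. How often an array was the lowest over all probe sets was not counted. Its mean macrophage marker level was 8.36, against 8.61 and 8.75 in the other Nemo/TNFR1 dKO arrays, and its mean stellate cell and fibroblast marker level was 9.21, against 9.51 and 9.56. In Nemo/TRAIL dKO, replicate 2 was the lower array for 13 of the 16 called genes, with a macrophage marker mean of 8.55 against 8.78 in replicate 1. In Nemo KO, replicate 1 had the lowest means of both marker lists, 8.59 and 9.33, but was the lowest for only 8 of the 16 genes. In WT the lowest array was replicate 1, 2 or 3 for 6, 4 and 6 genes. There replicate 3 had the lowest macrophage mean, 7.57, and the highest stellate cell and fibroblast mean, 8.67.

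Most markers of macrophages and of stellate cells were also higher in the Nemo-deficient genotypes than in WT. Of 12 macrophage markers, 10 rose in Nemo/TNFR1 dKO, 10 in Nemo/TRAIL dKO and 11 in Nemo KO, with median differences of 0.99, 1.10 and 1.26. Their mean level was 8.36 to 8.75 in Nemo/TNFR1 dKO, 8.55 to 8.78 in Nemo/TRAIL dKO, 8.59 to 8.80 in Nemo KO and 7.57 to 7.64 in WT. Mpeg1, a pore-forming protein of macrophages, differed from WT by 1.38 ± 0.19, 1.63 ± 0.22 and 1.57 ± 0.19 in the same order. Of 12 stellate cell and fibroblast markers, 10, 8 and 9 rose, with medians of 0.93, 0.70 and 0.89. Their mean level was 9.21 to 9.56 in Nemo/TNFR1 dKO, 9.22 to 9.38 in Nemo/TRAIL dKO, 9.33 to 9.58 in Nemo KO and 8.29 to 8.67 in WT. Pdgfrb, the platelet-derived growth factor receptor of stellate cells, differed from WT by 1.38 ± 0.20, 1.38 ± 0.22 and 1.61 ± 0.20. The part of these cell types in the rise of the integrin and laminin genes was not tested.

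In the other marker lists at most 3 genes were called higher in a comparison. Of 10 T and NK cell markers 3, 1 and 1 rose, with Nkg7, a granule protein of cytotoxic cells, higher by 1.10 ± 0.17 in Nemo/TNFR1 dKO, 0.94 ± 0.19 in Nemo/TRAIL dKO and 0.72 ± 0.17 in Nemo KO. Their mean level was 5.60 to 5.85 in Nemo/TNFR1 dKO, 5.56 to 5.58 in Nemo/TRAIL dKO, 5.45 to 5.66 in Nemo KO and 5.36 to 5.44 in WT. The share of T and NK cell markers called in Nemo/TNFR1 dKO, 3 of 10, was above the 5.83% of all probe sets called higher there. Of 12 neutrophil markers 1, 0 and 1 rose, of 6 platelet markers 1, 0 and 0, and of 12 endothelial markers 2, 2 and 2, with 1 endothelial marker lower in Nemo/TRAIL dKO. The same held for the endothelial list and for every other list and comparison here with at least 1 marker called higher. In lists this short, 1 call is enough to exceed the share of all probe sets. Of 8 cholangiocyte markers 1, 1 and 0 rose, and their mean level was 6.27 to 6.63 in Nemo/TNFR1 dKO, 6.36 to 6.74 in Nemo/TRAIL dKO, 6.43 to 6.56 in Nemo KO and 5.96 to 6.22 in WT. Of the 11 hepatocyte and the 10 pancreatic acinar markers none was called in any comparison with WT. The acinar markers had median differences of -2.01, -1.96 and -1.98 in Nemo/TNFR1 dKO, Nemo/TRAIL dKO and Nemo KO. WT replicate 3 was far above the other WT arrays for them, and with that spread the missing calls do not show equal levels.

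**Figure D4:**
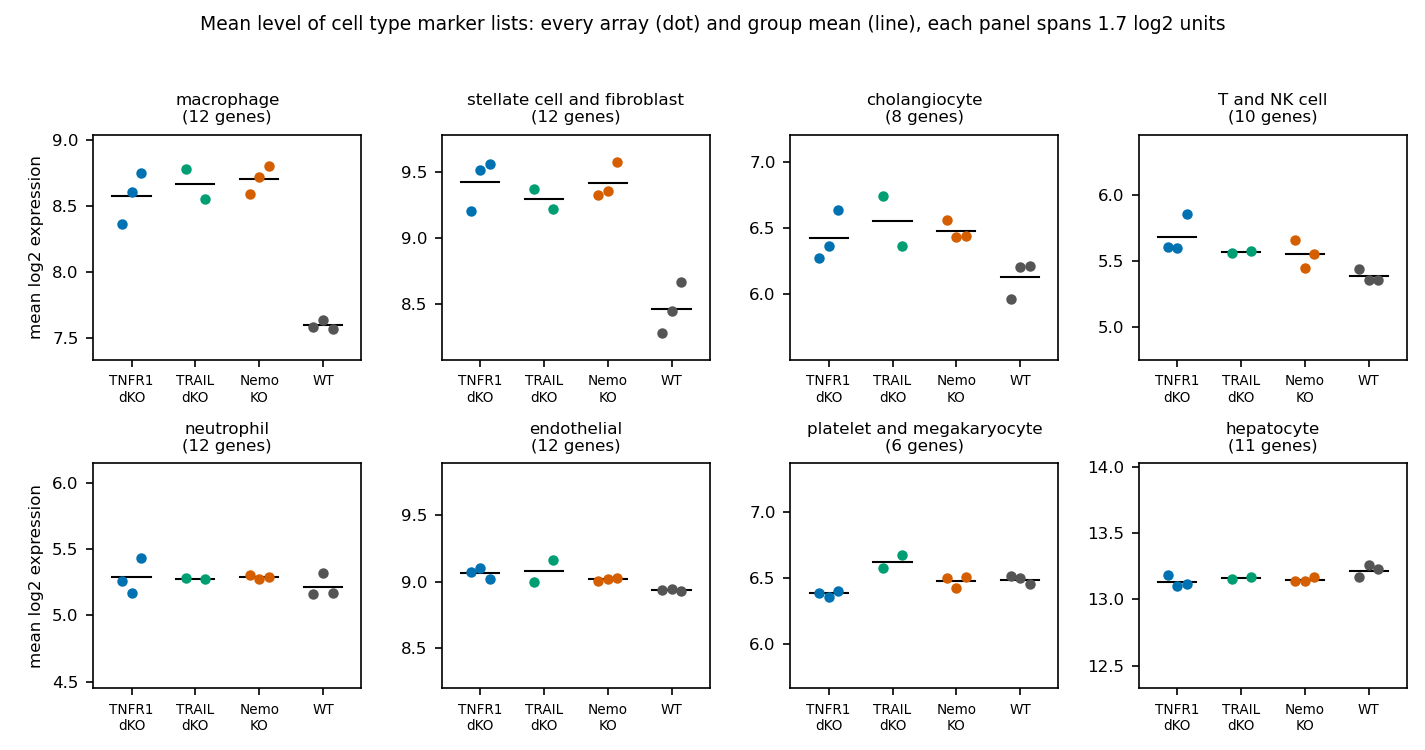
Mean log2 expression (y axis) of the measured genes of 8 cell type marker lists, with a dot per array and a line at the group mean, for Nemo/TNFR1 dKO, Nemo/TRAIL dKO, Nemo KO and WT. The macrophage lists of the Nemo-deficient arrays sit between 8.36 and 8.80, above the WT arrays at 7.57 to 7.64, and the hepatocyte lists sit between 13.10 and 13.26 in all arrays.

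Genes that act with integrins and laminins were counted in 3 lists. Beside these counts stand the shares of all probe sets called against WT. They were 5.83% higher and 3.35% lower in Nemo/TNFR1 dKO, 4.91% and 2.64% in Nemo/TRAIL dKO, and 6.08% and 3.21% in Nemo KO. Of 27 ligands of integrins, 11 rose in Nemo/TNFR1 dKO, 11 in Nemo/TRAIL dKO and 12 in Nemo KO, and none fell. Their median differences were 0.44, 0.24 and 0.39. The probe set taken for C3 in this list was dim, at 5.70 to 6.08 over the arrays, and whether it reports complement C3 was not checked. Vcam1, the endothelial and stellate cell ligand of the Itga4 and Itga9 receptors, was at 9.09, 9.46 and 9.39 in Nemo/TNFR1 dKO, 9.26 and 9.76 in Nemo/TRAIL dKO, 8.97, 9.31 and 9.62 in Nemo KO and 6.78, 7.32 and 6.83 in WT. Its differences were 2.34 ± 0.21 (5.05-fold, adjusted p = 0.000482) in Nemo/TNFR1 dKO, 2.53 ± 0.23 (5.79-fold, adjusted p = 0.00069) in Nemo/TRAIL dKO and 2.32 ± 0.21 (5.01-fold, adjusted p = 0.000437) in Nemo KO. Tnc, which encodes the Itga9 ligand tenascin C, differed by 2.26 ± 0.37, 2.30 ± 0.41 and 2.19 ± 0.37, and the matrix protein gene Thbs1 by 2.07 ± 0.30, 2.17 ± 0.34 and 1.94 ± 0.30, all called. The collagens Col1a1 and Col3a1 stand in both the ligand list and the stellate cell list.

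Of 22 basement membrane genes and laminin partners, 9 rose in Nemo/TNFR1 dKO, 4 in Nemo/TRAIL dKO and 7 in Nemo KO, and none fell. Their medians were 0.27, 0.14 and 0.16. Nid1 encodes nidogen, which links the laminin and collagen IV networks. It was at 9.77, 10.37 and 10.15 in Nemo/TNFR1 dKO, 9.94 and 10.07 in Nemo/TRAIL dKO, 9.66, 10.04 and 10.17 in Nemo KO and 8.46, 8.57 and 8.58 in WT. Its differences were 1.56 ± 0.16 (2.95-fold, adjusted p = 0.00079) in Nemo/TNFR1 dKO, 1.47 ± 0.18 (2.77-fold, adjusted p = 0.00202) in Nemo/TRAIL dKO and 1.42 ± 0.16 (2.67-fold, adjusted p = 0.00105) in Nemo KO. The collagen IV chain Col4a2 differed by 1.0 ± 0.14, 0.88 ± 0.16 and 0.92 ± 0.14, and the collagen-binding Sparc by 0.80 ± 0.14, 0.70 ± 0.15 and 0.89 ± 0.14.

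Of 25 activators and adaptors on the cytoplasmic side of integrins, 9 rose and 2 fell in Nemo/TNFR1 dKO, 7 rose and 1 fell in Nemo/TRAIL dKO, and 10 rose and 1 fell in Nemo KO. Their medians were 0.22, 0.18 and 0.17. In Nemo/TRAIL dKO and Nemo KO, 1 fall of 25 is near the 2.64% and 3.21% of all probe sets called lower there. Flna, the actin-binding filamin A, differed from WT by 1.05 ± 0.22, 1.07 ± 0.24 and 0.96 ± 0.22, and Parvg, the parvin of blood cells, by 0.84 ± 0.09, 0.97 ± 0.10 and 0.73 ± 0.09. Fermt2 encodes kindlin-2, the integrin activator of cells outside the blood lineage, and it fell in all 3 genotypes. It was at 10.38, 10.46 and 10.39 in Nemo/TNFR1 dKO, 10.12 and 10.28 in Nemo/TRAIL dKO, 10.35, 10.35 and 10.17 in Nemo KO and 11.06, 10.89 and 11.03 in WT. Its log2 differences were -0.59 ± 0.08 (adjusted p = 0.00218) in Nemo/TNFR1 dKO, -0.79 ± 0.09 (adjusted p = 0.00136) in Nemo/TRAIL dKO and -0.71 ± 0.08 (adjusted p = 0.000942) in Nemo KO. No gene of these 3 lists was called between the Nemo-deficient genotypes.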

How the data were processed

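Liver RNA was measured on 11 Affymetrix mouse whole-transcript arrays. The values are log2 expression per probe set, deposited by the authors and made with RMA per the submitters' processing notes; the sources used here name no version or settings. RMA scales arrays to a common distribution, so differences are relative to the other genes of an array, and log2 differences of dim probe sets are compressed. No further normalization or filter was applied.

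Samples were grouped by genotype in the labels. A linear model with a mean for each genotype was fitted in limma 3.58.1 (R 4.3.3) over the 11 arrays and 35556 probe sets (residual degrees of freedom 7, prior 2.51). The 6 comparisons took two-sided p-values with Benjamini-Hochberg adjustment within each comparison. The number of arrays limits the precision, with a median standard error of 0.102 where both groups had 3 arrays and 0.114 where 1 group had 2. The fit was tested on simulated data.

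Of the probe sets, 21789 had 1 gene symbol, 1621 had several and 12146 had none. All 39 genes matched the RefSeq table (GRCm38), used for names, chromosomes, neighbours and the gene bounds set against the promoter windows. The members and the 12 gene lists (181 entries, 167 measured), 3 of pathways and 9 of cell types, were chosen with earlier results of these data known. Every called member is given by array, the others by their differences. Of each pathway list, the called genes with the largest difference in Nemo KO were named, up to 3. Alternatives tried were robust moderation, a variance trend, array weights, quantile normalization, leaving out probe sets below the 25th percentile of mean signal, the lower probe set of Itgad, a fit of just the compared genotypes, a fold cut of 1.5, the replicate block and each array left out.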

Additional observations from a re-analysis of the deposited data

How the results depend on the processing

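The counts of integrin and laminin genes called against WT kept within 1.5 times of the reported 13, 13 and 15 in Nemo/TNFR1 dKO, Nemo/TRAIL dKO and Nemo KO under a variance trend, robust moderation, quantile normalization, the percentile filter, the other Itgad probe set, array weights and a fold of at least 1.5 (11, 9 and 12). With only the 2 groups compared, the counts were 8 in Nemo/TNFR1 dKO and 8 in Nemo/TRAIL dKO; that fit has fewer arrays. Under quantile normalization 1 gene, Itga7, was called lower in Nemo/TNFR1 dKO, against 0 reported. Leaving out each array in turn gave 8 to 15 genes higher and 0 to 1 lower in Nemo/TNFR1 dKO, 2 to 14 higher and 0 to 1 lower in Nemo/TRAIL dKO, and 13 to 16 higher in Nemo KO. Same-numbered arrays did not deviate together (15 correlations between -0.117 and 0.044, and the own number correlated best in 3 of 18 cases). This gave no sign that the numbers pair the samples. With groups of 2 or 3 arrays it cannot exclude a pairing, which the labels neither state nor deny. With the replicate block 12, 12 and 14 genes were called higher, 0 lower, and 0 between the Nemo-deficient genotypes. The calls lost with only the compared groups were Itga8, Itgav, Itgax, Itgbl1 and Lama2 in Nemo/TNFR1 dKO, and Itga8, Itgax, Itgb5, Itgb8, Lama5 and Lamc3 in Nemo/TRAIL dKO, where Itga6 was gained. In Nemo KO, Itgb1 was lost and Itgam gained (adjusted p = 0.0488), so the count of 15 stayed. No called gene changed direction under any of these settings. The number of arrays and the dim signal of 11 of the 39 genes, whose mean was below the median of all probe sets, limit what could be called.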
